A study of Mus musculus with 8 samples.

Results

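Both 0h libraries called an ATAC-seq peak in the regions described here, and at most 1 of the 6 libraries of 6h, 12h and 24h did so again. The 8 deposited lists were joined wherever peaks of chromosomes 1 to 19 and X shared at least 1 bp, which gave 32720 regions, and 543 of them (1.66%) met this rule. They made up 4.16% of the 13059 regions with a peak in both 0h libraries. No peak was called at any later time in 200 of them, and 343 had a peak in exactly 1 later library. Members were chosen by the peak calls themselves, so their number, their presence at 0h and their absence later are descriptions and carry no test. The regions are called closed below in the sense that no peak was called. A missing call does not measure how much accessibility was left.

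The cells were mouse acute myeloid leukaemia cells driven by the MLL-AF9 fusion, which carried TetO-Klf4, a construct that expresses the zinc-finger transcription factor Klf4 when doxycycline is given. Cells with GFP were sorted out of leukaemic animals, with bone marrow as the labelled tissue and C57BL/7 in the labels' cell line field. The groups were 0, 6, 12 and 24 hours, with 2 libraries each of 50000 cells. All 4 groups carried the fusion and the construct, and the labels leave unsaid whether 0h cells had received doxycycline, how old the mice were, and whether both libraries of a time are from different animals. The 8 lists held 14822 to 21895 peaks, and the background, an index of depth, was lowest in the second 0h library, at 1.5 tags per kb, and 2.23 to 2.67 in the other 7. That library thus stood apart as the shallowest, with a median peak width of 282 bp against 370 to 460 bp elsewhere.

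Open chromatin marks promoters and enhancers, where nucleosomes are displaced by transcription factors. In myeloid cells many distal sites are opened by PU.1, an ETS-family factor that binds purine-rich DNA around a GGAA core, together with C/EBP and RUNX factors. Promoters rich in CpG tend to stay open across cell states, whereas distal sites and CpG-poor promoters vary more with cell state. KLF and SP factors bind GC-rich boxes and CACCC boxes.

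No genome sequence was used, so sequence was read only at promoters, from the RefSeq promoter table of GRCm38.p6 (250 bases before and 50 bases after a gene's start). Sequence results leave out 22 closed regions on a chromosome that was not analysed for sequence, and so rest on 521. Of these, 45 (8.64%, Wilson 95% interval 6.52% to 11.4%) overlapped a promoter window, covering 49 gene symbols. On the same chromosomes the share was 27.6% of all merged regions and 51.4% of regions in both 0h lists. It was 64.6% of the constantly called regions, those called in both 0h and all 6 later lists. Among 13 short motifs searched on both strands, the one most in excess over the promoters of constantly called regions, in percentage points, was AGGAAGT, a PU.1-type ETS sequence. It was singled out after its values were seen. The sequences below show it in capitals in 8 of the closed promoter regions, with the neighbouring bases, because the comparison after them turns on it. Positions are those of the printed bases.
Eif2ak2, chr17:78882716-78882744, minus strand: gaatggaagccAGGAAGTgtccgaaacct
Kcne3, chr7:100176454-100176482, minus strand: gtctcaaaaacAGGAAGTggcccctgttg
Plcb2, chr2:118728640-118728668, minus strand: aagcccagagcAGGAAGTgctgaggcagg
Csf2rb2, chr15:78305677-78305705, plus strand: agagcagattgAGGAAGTtgccagtgccc
Ccdc39, chr3:33844334-33844362, minus strand: ggaattctcaaAGGAAGTtccgccttcca
Prrg1, chrX:78583933-78583961, plus strand: gcggggccgggAGGAAGTgggaagcaagg
Akr1b10, chr6:34384182-34384210, minus strand: ggcactggcacAGGAAGTgcatttcggtt
Ccdc180, chr4:45890240-45890268, plus strand: gctccctgagaAGGAAGTgtgctcaggga

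AGGAAGT was found in the promoter windows of 12 of the 45 closed promoter regions (26.7%). It was found in 532 of 5761 promoter regions (9.23%) that had a peak in both 0h libraries and all 6 later ones, and in 9.35% of all 32851 promoter windows. Sorted by the number of later libraries with a peak, the share was 23.5%, 28.6%, 22.2%, 14.8%, 9.30%, 10.5% and 9.23% for 0 to 6 libraries. The first 3 of these rest on 17, 28 and 45 promoter regions, with Wilson 95% intervals of 9.56% to 47.3%, 15.3% to 47.1% and 12.5% to 36.3%. Among promoter regions with a 0h strength of at most 40, a measure explained below, the share was 27.0% of 37 closed regions (15.4% to 43.0%). It was 10.6% of 358 constantly called ones (7.83% to 14.2%). The matches in these 37 are 10 of the same 12, so this is no separate support. In 10 of the 12 closed promoter regions the match lay inside the merged region itself, as in the 8 shown, and at Mylk3 and Abcb4 it lay outside. The share inside was not computed for constantly called regions. A match describes letters and is not evidence of binding.

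GC-rich motifs were found in a smaller share of closed than of constantly called promoter regions. The GC box GGGCGG was found in 44.4% of closed and 77.9% of constantly called promoter regions, and the median GC content of their windows was 57.0% and 63.3%. Closed promoter windows held a median of 9 CG dinucleotides against 24 in windows of constantly called regions and 7 in all windows. The CACCC box CCACNCC was found in 37.8% against 48.2%, and GGGTGTG, a core of the KLF4 motif, in 6.67% (3 of 45) against 9.22%. The remaining shares for closed against constantly called promoter regions were 6.67% and 18.2% for CGGAAGT (ETS), 6.67% and 3.61% for TGTGGTT (RUNX), and 17.8% and 13.5% for TTGCNCA (C/EBP). They were 6.67% and 4.08% for TGANTCA (AP-1), and 20% and 13.7% for GAAACT, part of the interferon-response element. For AGATAAG, bound by factors of the erythroid and mast cell lineages named GATA, they were 2.22% and 1.42%. For CAACTG (MYB) they were 20% and 10.4%, for TGACAG (MEIS) 24.4% and 18.8%, and for the E-box CACGTG 6.67% and 13.2%. Of all promoter windows, 32.7% held the CACCC box, 7.95% the KLF4 core, 35.7% the GC box, 6.42% the ETS core and 5.27% the RUNX motif. For C/EBP this share was 13.6%, for AP-1 7.81%, for GATA 3.04%, for the interferon-response motif 15.8%, for MYB 13.7%, for MEIS 19.2% and for the E-box 7.15%. Of the 55 closed promoter windows, 45.5% held the GC box and 38.2% the CACCC box, more than of all windows. The KLF4 core was in 5.45% of them, less than of all windows. Motifs of the same family can overlap in a sequence. No motif was searched in the closed regions away from promoters, which are the large majority.

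The closed regions were weak peaks at 0h. Strength is given here as the mean, over both 0h lists, of the percentile of fold enrichment within the list, where fold is the authors' ratio of summit pile-up plus 1 over local background plus 1. It had a median of 25.2 in the closed regions (quartiles 16.6 and 36.3, range 0.903 to 75.7) and of 71.7 in the 9168 regions called in both 0h and all 6 later lists. Median fold was 6.14 in the first and 5.74 in the second 0h library, against 10.6 and 9.26 in the constantly called regions. The median pile-up at the summit was 10 and 6 tags in the closed regions and 31 and 14 in the constantly called ones. The lowest pile-up of any called peak was 5 tags in the first 0h library, 4 in the second and 5 in each later library. Many closed regions were therefore only a few tags above what any library could call, and the part of this in their missing calls was not tested.

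Median strength was higher with each further later library that called a region. It was 23.8, 26.4, 30.6, 33.9, 39.4, 44.8 and 71.7 for regions with 0 to 6 later peaks. Of the regions in both 0h lists with a strength up to 20, 26.5% were closed by the rule. The share was 10.9% between 20 and 40, 2.68% between 40 and 60 and 0.281% between 60 and 80, and no closed region lay above 80. Just inside the limit of the rule, the 343 regions with 1 later peak had median folds of 6.25 and 5.77 at 0h. Just outside it, the 481 regions with 2 later peaks had median folds of 6.58 and 6.13. The strongest of those just outside lay inside Clec1a, with a strength of 83.4.

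**Figure D1:**
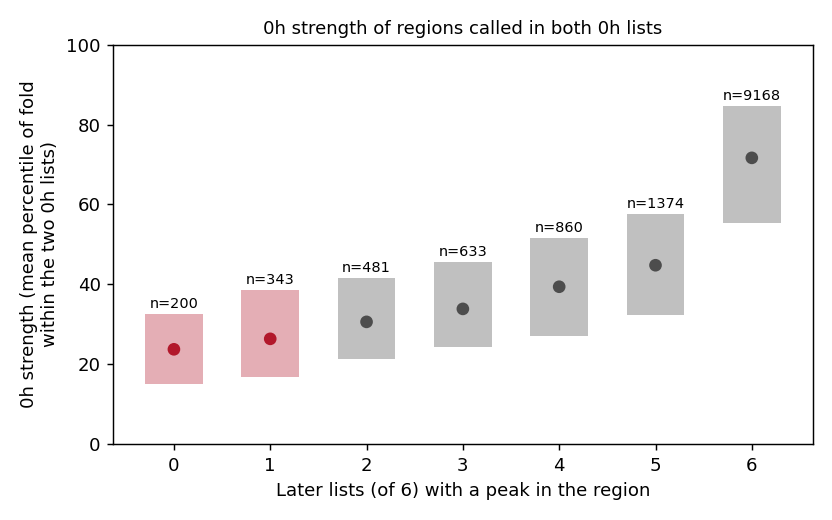
0h strength (mean within-list percentile of fold enrichment, y axis) of regions with a peak in both 0h lists, by the number of later lists with a peak (x axis). Points are medians and bars run from the first to the third quartile, with the closed regions in red. The median climbs from 23.8 with no later peak to 71.7 with 6.

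Depth differed between the libraries that the rule sets against each other, and its part in the calls was not tested. Of the closed regions, 254 (46.8%) had a −log10 q under 5 in the second 0h library and 174 (32.0%) in the first. Over all regions in both 0h lists the shares were 14.4% and 3.90%, and over the constantly called ones 6.54% and 0.425%. The peaks of both 0h libraries overlapped each other in 537 of 543 regions, by a median of 157 bp. Joining by overlap fixes this in advance for regions without a later peak, so it does not measure how well the 0h libraries agree. Their summits lay within 150 bp of each other in 450 (82.9%), against 87.0% of the constantly called regions. A missing call seldom had a peak close by: the later library had one within 500 bp of the region for between 2 and 6 of the 429 to 529 regions it did not call.

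The single later peaks were concentrated at 6h and 12h. Of the 343 regions with 1 later peak, 136 had it at 6h, 179 at 12h and 28 at 24h. By library, 6h gave 47 and 89, 12h gave 114 and 65, and 24h gave 14 in each. Per 1000 peaks of the list, 6h gave 2.71 and 4.93, 12h gave 5.21 and 3.30, and 24h gave 0.927 and 0.945. Both 24h libraries were thus below all 4 libraries of 6h and 12h. The 24h lists were also the shortest, with 15104 and 14822 peaks, and the part of list length and depth in these counts was not tested. The later peaks were weak too, with median percentiles of fold within their lists between 6.44, in the first 24h library, and 23.9, in the first 12h library. The label of closure from 6h onwards therefore holds without exception for 200 regions, while 179 had a peak again in 1 of the 2 libraries of 12h.

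**Figure D2:**
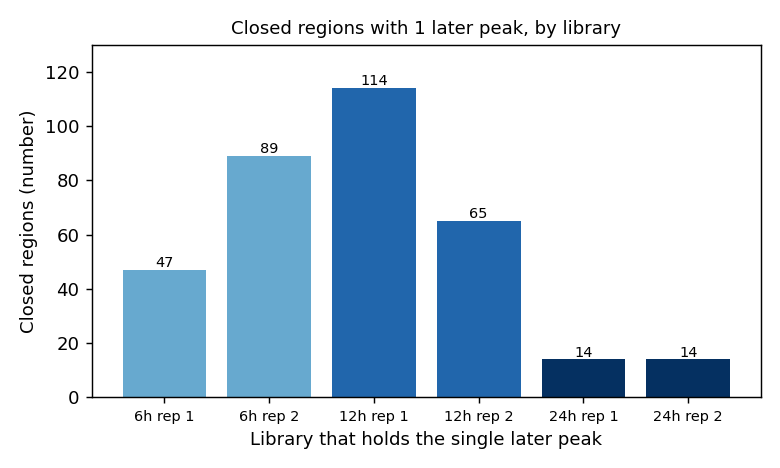
Number of closed regions (y axis) whose single later peak fell in each of the 6 later libraries (x axis). Bars are counts, which run from 14 in each 24h library to 114 in the first 12h library.

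Most closed regions lay away from gene ends. Within 1 kb of an end of a protein-coding gene lay 55 (10.1%, Wilson 95% interval 7.86% to 13.0%), against 66.9% of the constantly called regions and 30.5% of all merged regions. The share was graded with the number of later peaks, at 12.5% (9.82% to 15.7%) of regions with 2, 16.1% with 3, 21.4% with 4 and 32.9% with 5, so the closed regions lay close to those just outside the rule. Inside a gene lay 267 (49.2%), against 53.4% and 54.6%, and 77 (14.2%) had no gene end within 100 kb, against 2.95% and 8.51%. The median distance to a gene end was 18.5 kb, against 0.159 kb for the constantly called regions. The intervals cover counting error only, and regions are not replicates of a condition, so no test was made.

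The difference in position was also read within bands of 0h strength, which match the fold percentile only. In the strength band from 0 to 20, 8.33% of the 192 closed regions and 32.7% of the 110 constantly called regions lay within 1 kb of a gene end. Between 20 and 40 the shares were 12.2% of 255 and 41.9% of 783, and between 40 and 60 they were 8.14% of 86 and 54.3% of 1954. The closed regions were also narrower in these bands, with median widths of 385.5, 374 and 355.5 bp against 656.5, 731 and 742.5 bp. Width is that of the merged region, which joins peaks of more lists in constantly called regions, so this was partly set in advance. The part of width in the difference in position was not tested. The intervals did not overlap in these 3 bands, while between 60 and 80 only 10 closed regions were left, 1 of them near a gene end. Another group of lost regions was the 231 that every library up to 12h called and no 24h library did. Of these, 16.9% (12.6% to 22.2%) lay near a gene end, and their interval overlapped that of the closed regions. No gene end lay within 100 kb of 16.5% of these 231.

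**Figure D3:**
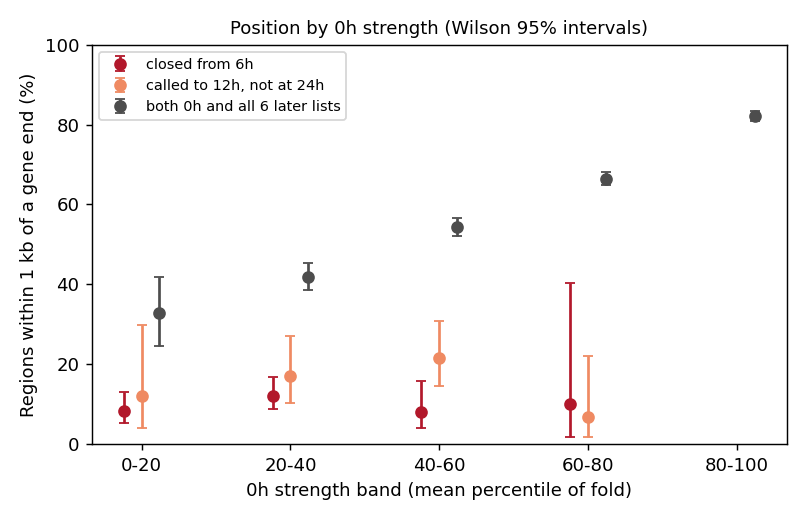
Share of regions within 1 kb of a gene end (y axis, percent) in bands of 0h strength (x axis), for closed regions, regions called up to 12h and not at 24h, and regions called in both 0h and all 6 later lists. Error bars are Wilson 95% intervals and groups under 10 regions are left out. Closed regions stay between 8.14% and 12.2% in the 3 lower bands, below the constantly called regions at 32.7% to 54.3%.

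Peaks of other regions near the closed ones were called about as often as elsewhere in the same libraries. Within 25 kb of a closed region lay 785 other merged regions. The 0h libraries called 63.4% and 41.9% of these, against 65.7% and 45.9% of all regions outside the closed set. The first 12h library called 64.6% against 66.9%, and the first 24h library 47.3% against 46.3%. The differences were -2.22 and -3.98 percentage points in the 0h libraries and ran from -2.32 to 1.00 in the later ones. The mean 0h difference minus the mean later one was -2.80 points, and it was 0.371 points when 0h peaks needed a −log10 q of at least 5. A constantly called region lay within 25 kb of 168 closed regions (30.9%), and 148 (27.3%) had no other region that near. Another closed region lay within 25 kb of 16 (2.95%), in 8 pairs. These shares were not computed for other regions, so they do not show whether closed regions are more or less isolated.

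The 20 strongest regions with no later peak had 0h folds between 5.59 and 10.4. A site inside Dnm3, which encodes a dynamin GTPase of membrane fission, had folds of 10.4 and 7.62 at 0h with pile-ups of 15 and 9 tags (chr1:162006194-162006424). A site 24.8 kb from Pde5a, the cGMP phosphodiesterase gene, had folds of 8.14 and 8.16 and pile-ups of 14 and 9 (chr3:122704253-122704559). A site deep inside Inpp4b, which encodes a phosphatase of phosphoinositide lipids, had folds of 7.90 and 7.94 and pile-ups of 11 and 9 (chr8:81751111-81751465). The folds of both 0h libraries were close at Pde5a and Inpp4b and further apart at Dnm3, and none of the 6 later libraries called any of the 3. A site inside Rragc, whose Rag GTPase brings mTORC1 to lysosomes, had folds of 7.55 and 7.82 (chr4:123927908-123928234), and 3 constantly called regions lay within 25 kb of it. A site 1.21 kb from Mrap, an accessory protein of melanocortin receptors, had folds of 8.14 and 7.66 (chr16:90736870-90737122). The strongest of all, at folds of 10.0 and 9.26, was over 100 kb from any gene end (chr12:64598138-64598360).

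Next among the 20, a site inside C5ar2, a receptor for the complement fragment C5a, had folds of 7.96 and 6.72 and pile-ups of 14 and 8 (chr7:16239727-16240068). Sh2b3 encodes the adaptor LNK, which restrains cytokine signalling in blood progenitors, and the closed site inside it had folds of 8.27 and 6.43 and pile-ups of 15 and 8 (chr5:121824202-121824662). A site 15.3 kb from Tnfsf8, the gene of CD30 ligand, had folds of 9.16 and 5.89 (chr4:63815780-63816028), and a site inside Fcrlb, an Fc receptor-like gene, had 6.58 and 7.78 (chr1:170912268-170912551). The region before Kcne3, a potassium channel subunit, had 6.14 and 8.07 with 9 tags in each library. Fold was higher in the first 0h library at C5ar2, Sh2b3 and Tnfsf8, and in the second at Fcrlb and Kcne3. The other regions among the 20 strongest without a later peak lay inside Fhit, Tarsl2, Tmem117, Clasp2, Lrrc20 and Nav2, between genes near Isoc1, and at 2 sites over 100 kb from a gene, with folds between 5.59 and 9.94 in the 0h libraries. Of the 15 alternative settings tried, many could not exclude a region without a later peak. These were the settings that left out a library, allowed no later peak or regrouped later lists by replicate number. Of the 20, 10 met the rule under all 15, those at Dnm3, Mrap, Rragc, Tarsl2, Tmem117, Clasp2, Tnfsf8 and Nav2 among them. The Sh2b3, C5ar2, Pde5a and Inpp4b sites did not when peaks had to cover at least 50% of the region, and Kcne3 and Fcrlb did not with lists of equal length either.

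**Figure D4:**
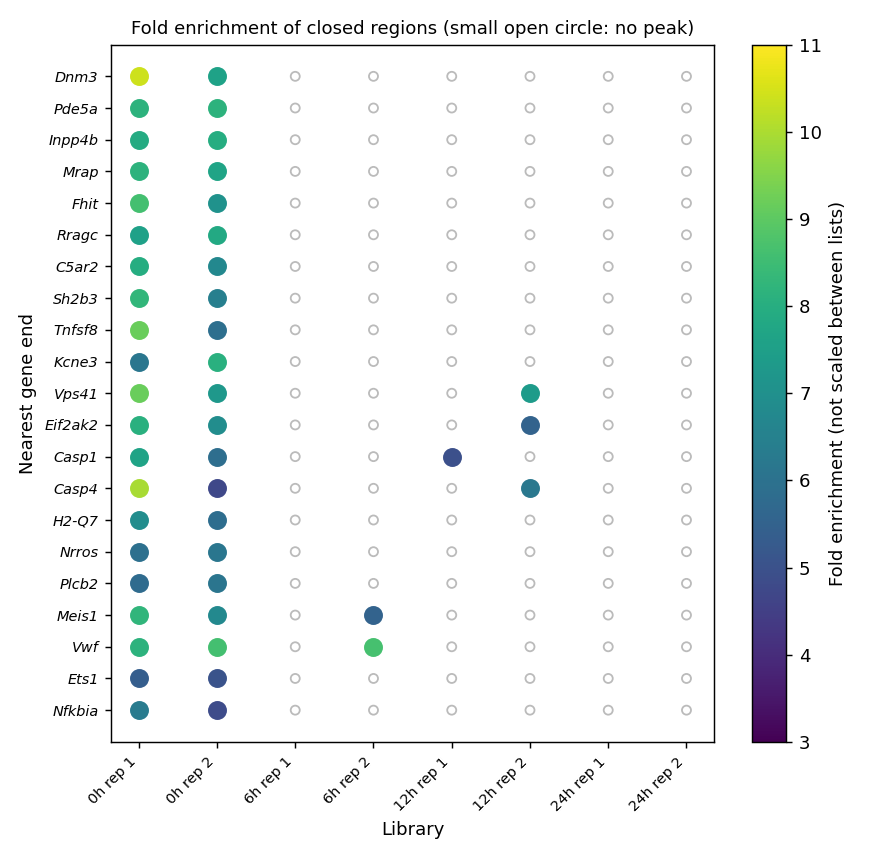
Fold enrichment (colour, the authors' value, not scaled between lists) of 21 closed regions in the 8 libraries (x axis), with each region named by its nearest gene end (y axis). Filled circles are called peaks and small open circles mark libraries with no peak. All 21 have both 0h peaks, and the later columns hold a single peak for Vps41, Eif2ak2, Casp1, Casp4, Meis1 and Vwf.

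For each later library, the strongest closed region with its single later peak there was also read. Its fold was 9.94 and 10.2 at 0h and 7.78 in the first 6h library for a site 187 kb from Nrp1, a semaphorin and VEGF co-receptor gene (chr8:128171227-128171597). For a site on chromosome 1 more than 100 kb from any gene it was 11.2 and 7.86 at 0h and 4.83 in the second 6h library (chr1:143319647-143319946). For a site 16.6 kb from Gpcpd1, a glycerophosphocholine phosphodiesterase gene, it was 8.81 and 8.53 at 0h and 8.12 in the first 12h library (chr2:132512171-132512628). The Vps41 start had 9.16 and 7.26 at 0h and 7.36 in the second 12h library. Each of these 4 was called in a single later library and in no other. A site 214 kb from Zfp386 had 9.44 and 7.18 at 0h and 5.18 in the first 24h library, and a site inside Ppm1h had 10.0 and 10.4 at 0h and 6.56 in the second 24h library. Folds of different lists are not on a common scale.

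The promoter regions named next were picked out after their values were seen, and stand for no group of genes. Casp1, the protease that matures interleukin-1 beta, and Casp4, the neighbouring inflammatory caspase that senses bacterial lipopolysaccharide, formed 1 of the 8 close pairs, with 9.11 kb between the regions. The 250 bases before each start are shown with any match to the searched motifs in capitals, an E-box in Casp1 and a MYB-type match in Casp4, because no other region lay within 25 kb of either.
Casp1, chr9:5298267-5298516, plus strand: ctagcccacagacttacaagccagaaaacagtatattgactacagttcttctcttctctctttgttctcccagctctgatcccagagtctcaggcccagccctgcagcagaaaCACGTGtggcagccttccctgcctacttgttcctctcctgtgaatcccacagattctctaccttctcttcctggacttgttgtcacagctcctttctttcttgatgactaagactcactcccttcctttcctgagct
Casp4, chr9:5308599-5308848, plus strand: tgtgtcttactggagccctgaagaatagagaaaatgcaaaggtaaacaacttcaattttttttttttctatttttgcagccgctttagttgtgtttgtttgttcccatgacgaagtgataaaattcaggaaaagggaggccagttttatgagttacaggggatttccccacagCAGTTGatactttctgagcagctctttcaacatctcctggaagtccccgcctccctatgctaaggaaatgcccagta

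The Casp1 region (chr9:5298186-5299176) had folds of 7.65 and 5.87 at 0h, with pile-ups of 11 and 6 tags, and a fold of 4.94 with 6 tags in the first 12h library. The Casp4 region (chr9:5308283-5309285) had folds of 9.97 and 4.74 at 0h, with 20 and 5 tags, and 6.2 with 8 tags in the second 12h library. Neither was called in any library of 6h or 24h. The 2 peaks of 0h at Casp4 overlapped each other by only 51 bp, and the region did not meet the rule when peaks needed a −log10 q of at least 5. Both regions failed the rule that allows no later peak and the one that asks for 50% cover.

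**Figure D5:**
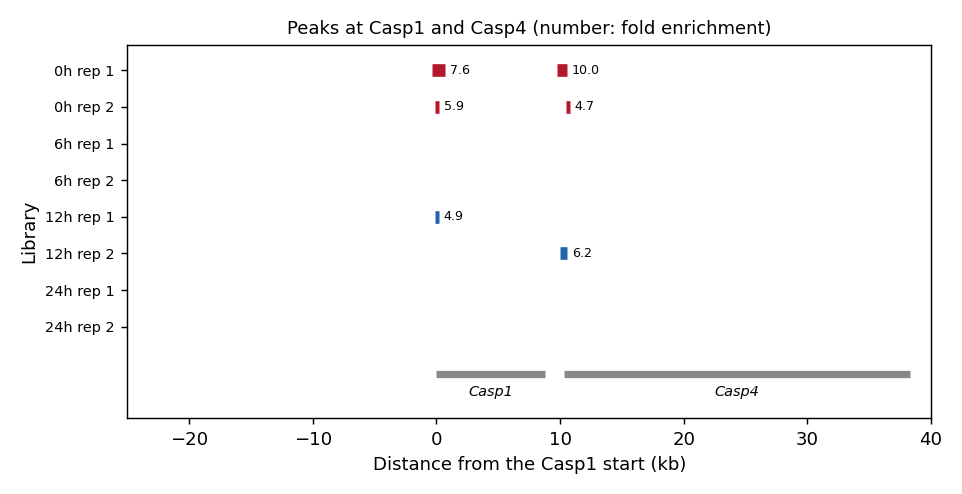
Called peaks (blocks, red at 0h and blue later) around the Casp1 start in the 8 libraries (y axis), against distance from that start in kb (x axis), with the fold enrichment printed beside each and the genes drawn in grey. The 0h libraries each hold 2 peaks, 12h holds 1 per library, and 6h and 24h hold none.

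Eif2ak2 encodes PKR, the kinase that senses double-stranded RNA, and its promoter is shown with matches to AGGAAGT, to the MYB motif and to the C/EBP motif in capitals, the last 2 of which overlap. Kcne3, the strongest promoter region without a later peak, is shown for comparison, with matches to the PU.1, AP-1, MYB and interferon-response motifs in capitals.
Eif2ak2, chr17:78882573-78882822, minus strand: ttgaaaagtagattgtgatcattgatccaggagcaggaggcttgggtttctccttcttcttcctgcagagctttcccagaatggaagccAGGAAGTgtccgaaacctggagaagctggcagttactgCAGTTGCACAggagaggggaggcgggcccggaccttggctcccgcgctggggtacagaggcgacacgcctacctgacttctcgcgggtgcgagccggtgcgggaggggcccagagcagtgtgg
Kcne3, chr7:100176420-100176669, plus strand: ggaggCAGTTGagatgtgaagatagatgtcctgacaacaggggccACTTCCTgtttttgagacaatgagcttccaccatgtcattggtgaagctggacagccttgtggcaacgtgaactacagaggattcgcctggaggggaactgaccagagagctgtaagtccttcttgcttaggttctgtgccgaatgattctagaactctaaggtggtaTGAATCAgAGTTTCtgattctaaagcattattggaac

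The Eif2ak2 region (chr17:78882198-78882955) had folds of 8.09 and 6.89 at 0h, with 13 and 8 tags, and 5.51 with 7 tags in the second 12h library. H2-Q7, a class Ib histocompatibility gene, had folds of 6.88 and 5.84 with 10 and 6 tags (chr17:35439059-35439422) and no later peak. H2-Q7 has close paralogs, so reads there may be split among copies. It met the rule under all 15 settings, many of which could not exclude a region without a later peak. Plcb2, a phospholipase C that acts downstream of chemoattractant receptors, had folds of 5.78 and 6.11 (chr2:118728419-118728660). Nrros, a myeloid protein that holds latent TGF-beta, had 5.92 and 6.13 (chr16:32165236-32165652). Ptpn22, a phosphatase that restrains lymphocyte receptor signalling, had its region at a start inside the gene, with 5.59 and 4.79 (chr3:103860143-103860340). These 3 had no later peak, and none exceeded a fold of 6.13 in either 0h library. Raet1e, a ligand gene of the natural killer receptor NKG2D, had 4.43 and 4.15, with 6 and 4 tags. Csf2rb2, the beta chain of the mouse interleukin-3 receptor, had 5.03 and 5.59 at 0h and 5.41 in the second 24h library (chr15:78305483-78305885).

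Vps41, a subunit of the HOPS complex for fusion with lysosomes, had its region across the start (chr13:18716996-18717512) with 13 and 8 tags at 0h. Kat2a, the histone acetyltransferase GCN5, had folds of 7.20 and 7.36 at 0h and 4.92 in the second 24h library (chr11:100712056-100712514). Six4, a homeobox gene, had 7.64 and 7.51 at 0h, with 21 and 11 tags, and 10.9 with 25 tags in the first 12h library (chr12:73113205-73113548). The gene-end regions among the 10 strongest also included those of 1110051M20Rik, Zfp850 and Tmtc2, with 0h folds of 6.39 to 9.26 and 1 peak each at 6h. Map2k6, an activator of p38 kinases, had 5.08 and 8.51 at 0h, and Cpt1a, which admits fatty acids to mitochondria, had 4.20 and 5.24. Both had 1 peak in the second 12h library, with folds of 4.89 and 5.37.

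Among the gene lists, members were few. A gene was credited with a region when its end was the nearest within 100 kb, which gave 453 of 13698 genes with any region (3.31%) a closed region. Of the 309 listed genes with a region, 17 (5.50%) had one. Listed genes carried 3.39 regions each on average against 2.19 over all genes, and of the regions called in both 0h libraries 4.56% were closed at listed genes and 3.77% at all genes.

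In the MLL-AF9 self-renewal list, 3 of 30 genes had a closed region. That inside Meis1, the cofactor of Hoxa9, had folds of 8.22 and 6.76 at 0h with 22 and 9 tags, and 5.51 in the second 6h library (chr11:18883582-18884214). Near Cd34, a surface antigen of stem cells, 0h folds were 7.29 and 4.82, and the second 12h library had 4.57. Near Hoxa10 0h folds were 3.53 and 4.72, and the second 6h library had 4.12. The Hoxa10 region was among the weakest closed regions at 0h, although its pile-up was 19 and 11 tags. Of 30 genes in the myeloid transcription factor list, 4 had one, Bach1, Ets1 and Fli1 among them. The site 6.62 kb from Ets1, an ETS-family factor of blood cells, had folds of 5.35 and 5.05 (chr9:32629596-32629786). It had no later peak. It did not meet the rule with lists of equal length, or with a −log10 q of at least 5 in every list or at 0h. Folds were 6.89 and 5.61 near Bach1, a haem-regulated repressor, and 5.08 and 5.36 inside Fli1, an ETS factor, each with 1 later peak.

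Of 28 apoptosis genes with a region, 2 had one, among them Tnfsf10, which encodes the death ligand TRAIL, with folds of 5.34 and 6.13 and no later peak. Of 30 cell cycle genes, Ccne1 and Ccnd2 had one, with folds of 6.4 and 6.32 and of 6.59 and 5.15. The Ccnd2 site, inside the gene, also had a fold of 7.27 in the first 6h library. Of 29 inflammation and NF-kB genes, Nfkbia, the inhibitor of NF-kB, had one 6.59 kb away (6.29 and 4.82). Of 29 cytokine receptor and signalling genes Csf2rb2 and Il4ra did, the latter with 4.37 and 5.01 at 0h. The Il4ra site also had a fold of 6.07 with 16 tags in the second 12h library. Smarca2, an ATPase of SWI/SNF remodellers, was the 1 of 30 chromatin regulators (4.46 and 4.64). None of 27 monocyte and macrophage, 17 granulocyte or 19 AP-1 and immediate early genes with a region had a closed one. With 3.31% over all genes with a region, none in lists of these sizes says little.

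Markers of other cells gave 3 of 43 genes, beside 3.31% over all genes with a region, and the lists are small. Of 7 megakaryocyte genes with a region, Vwf and Fli1 had a closed one, and Fli1 is also expressed in myeloid cells and counted in the list of myeloid factors. The site inside Vwf had folds of 8.15 and 8.60 at 0h and 8.64 in the second 6h library (chr6:125572964-125573498). Of 12 T and NK genes Bcl11b had one (5.52 and 3.99 at 0h, 6.67 in the first 24h library). None of 5 B lineage, 8 erythroid and mast cell, or 11 stromal and endothelial genes had one. Regions called in all 8 libraries were credited to 7 monocyte and macrophage and 4 granulocyte genes, and to 1 B lineage, 3 T and NK, 4 megakaryocyte, 3 erythroid and 1 stromal gene. In bulk libraries, fewer cells of a type and less accessibility per cell cannot be told apart.

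A few loci held more than 1 closed region. No gene had more than 2, and 13 genes had 2. At Usp3, a histone deubiquitinase gene, the closed sites lay 6.61 and 18.7 kb from the gene. Their 0h folds were 8.81 and 9.38 at the nearer and 5.36 and 4.69 at the farther. The nearer also had a fold of 8.69 in the second 6h library, and the farther 8.15 in the first 12h library. At the farther the 0h peaks did not overlap each other. At Golga5 the sites lay 19.9 and 26.4 kb away, with 0h folds of 6.70 and 10.3 and of 5.52 and 3.91. Here the nearer had a fold of 6.14 in the second 6h library, and the farther 6.49 in the first 12h library. The later fold was above both 0h folds at the farther site of each gene, though folds of different lists are not on a common scale. Rasa2, a Ras GTPase-activating protein gene, had 2 sites inside it (8.88 and 7.58, 6.02 and 5.87), each with a peak in 1 library of 12h. Igf1r, the receptor of insulin-like growth factor 1, had 1 site inside and 1 outside, each with a peak in 1 library of 6h. Rab2a, a GTPase of the early secretory pathway, and Spring1, a regulator of SREBP processing, had 2 sites each with no later peak, and those of Spring1 lay 5.51 kb apart. Their 0h folds were 8.45 and 5.47 and 8.98 and 4.74 at Rab2a, and 7.50 and 5.39 and 6.37 and 6.16 at Spring1. Gpx5, Nebl, Mrpl39 and Ccdc71l also had 2 each, with 0h folds of 4.21 to 8.42. Both Nebl sites had a peak in the first 12h library, with folds of 8.48 and 4.23. At Gpx5, Mrpl39 and Ccdc71l 1 of the 2 sites had a later peak.

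Closed regions occurred on all 20 chromosomes used, from 0.998% of the regions of chromosome 19 to 2.36% of those of chromosome 18, the one left out of sequence results. The weakest members lay near Rab11fip4, Vsnl1, Xxylt1, Ccdc136 and Rtn4, with folds of 3.83 to 4.40 and pile-ups of 4 to 19 tags at 0h. Leaving out a library loosens the rule, so a higher number of regions was nearly set in advance. Without the first 0h library it found 1809 and without the second 4685, and without the first 12h library it found 839. With lists of equal length it found 403, and 193 of the 543 (35.5%) were among them.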

How the data were processed

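ATAC-seq was made on 8 libraries of sorted leukaemia cells, 2 per time point, and groups and replicate numbers come from the sample labels. The submitters' processing notes name BWA, SAMtools, MACS2 and the mm10 build, and there was 1 peak list per library. Versions, read shifting, and the handling of duplicates and mitochondrial reads were not given in those sources. For each peak the authors deposited a fold enrichment (a linear ratio), a −log10 p-value, a −log10 q-value, a summit position and an integer score, which was not used.

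Peaks were merged with Python 3.11.15 and pandas 2.3.3. Fold and −log10 p together gave the whole-number pile-up and the background, within a tolerance of 0.001. Background per kb is the lowest background of a list divided by its smallest peak width. Genes were 21631 protein-coding genes of GRCm38.p6, the assembly of mm10, without strand or exons. Promoters came from the RefSeq promoter table, and symbols of the lists matched for all 359 genes. Sequence features were read at promoters only, without chromosome 18.

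Members and the 15 gene lists were chosen with earlier results of these data known. Named were the 20 strongest members without a later peak, the strongest for each later library, up to 10 genes with 2 members, up to 3 members per gene list, the 10 strongest at gene ends, and the 5 weakest. A few regions that this names are not reported here. Further promoters were named after their values were seen. No test was made, because the calls chose the members. Counting functions were checked on simulated peaks. Alternatives were lists of equal length (14822 peaks each), a minimum −log10 q of 5 in all lists or at 0h, 50% cover, a 500 bp margin, no later peak, each library left out, and a block on the replicate number. Intervals are Wilson 95% intervals (SciPy 1.17.1).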

Additional observations from a re-analysis of the deposited data

How the results depend on the processing

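The rule found 543 regions as reported. The number moved to 358 with a −log10 q of at least 5 in every list, 217 with that minimum at 0h only, 200 with no later list allowed, and 872 with a replicate block (at most 1 of the 3 later lists within each replicate number). Leaving out 1 library gave 589 to 4685 regions, the highest being 4685 and 1809 when the second or the first library of 0h was dropped. It loosens the rule, so higher numbers of regions, and of listed genes with one, were nearly set in advance. The block regroups the calls by replicate number and is not a paired test, since no test was made. The share within 1 kb of a gene end ran from 8.84% to 11.5% with 1 library left out, and no setting moved it beyond its interval. Median 0h strength moved to 38.1 with −log10 q of at least 5 at 0h, and was 16.7 to 27.2 with 1 library left out. Listed genes with a closed region, 17 as reported, numbered 11 with −log10 q of at least 5 in every list, 4 with it at 0h only, 7 with no later list, and 19 to 122 with 1 library left out. The share of members with 1 later peak was 63.2%, 56.4% with −log10 q of at least 5 in every list, 58.3% at 50% cover, and 39.0% to 65.4% with 1 library left out. The gap of neighbouring regions to their libraries, 0h minus later, was -2.80 percentage points. It became -1.77 with −log10 q of at least 5 in every list and with no later list (-1.77), -1.01 with lists of equal length, and -1.22 at 50% cover. It reversed to 0.371 with −log10 q of at least 5 at 0h, and was -2.59 to -0.851 with 1 library left out. The cause of these changes was not tested beyond the stricter or looser rule itself. The second 0h library had the lowest background and a lowest called pile-up of 4 tags, against 5 in every other library. The part of depth in these numbers was not tested. A missing peak is not a measured absence of accessibility.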
